A study of Mus musculus with 64 samples.

Results

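Aminoacyl-tRNA synthetases are the enzymes that load each amino acid onto its transfer RNA, the step that sets which amino acid a codon is read as. Most animal genomes carry separate nuclear genes for the enzymes of the cytosol and for those of the mitochondrial matrix, where they serve the protein synthesis of the respiratory chain subunits that mitochondrial DNA encodes. Several cytosolic synthetases sit together in a multisynthetase complex. Many of the cytosolic genes are known targets of ATF4, the transcription factor of the amino acid response, and of MYC, a driver of growth and protein synthesis. The synthetase genes were chosen by symbol, as those named for an amino acid letter followed by ars, ars1 or ars2, plus Eprs, Farsa and Farsb. That gave 37 genes of the 36332 distinct gene IDs in the table. Symbols ending in ars2 were taken as mitochondrial (17 genes) and the rest as cytosolic (20 genes). The split follows the names alone: Gars and Kars, counted as cytosolic, are known to supply the enzyme of both compartments, and there is no mitochondrial glutaminyl-tRNA synthetase gene, since mitochondria make that charged tRNA by amidation.

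The 64 RNA libraries came from skeletal muscle, liver and omental adipose tissue. The mice were 5 or 20 months old and either had Myc inactivated in the whole body (KO) or were wild type (WT). The KO strain joined a Cre recombinase that tamoxifen switches on (cre/ERT2, at Gt(ROSA)26Sor) with the floxed Myc allele Myctm2Fwa, and its names hold both B6 and 129S6. WT mice were labelled C57/B6 and were not from that cross, so strain background and Myc inactivation cannot be told apart. The labels give all mice, WT included, the same treatment, which was 5 daily intraperitoneal injections of tamoxifen in corn oil (75 mg/Kg) at weaning, from a weight of 15 g. Young groups held 6 libraries each, except for 4 in young KO muscle, and old groups held 5 each. Libraries are named by the labels' codes, in which K or W is the genotype, F, L or S the tissue, and 5 the young and 18 the old mice, although the age given in the labels of the latter is 20 months. Nothing in the labels says in so many words that the libraries of a group came from separate mice, so the tests measure the spread between libraries.

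The libraries held 15.4 to 28.5 M reads on genes (M, mega), with a median of 19.6 M. Values are in the deposited unit, named CPM, which is scaled by a factor per library and adds up to a different sum in each. Myc itself followed the labels most clearly in liver, where the 5-month KO libraries lay at 1.16 to 4.04 CPM and the WT libraries at 5.46 to 33.7, and in adipose tissue at 5 months (2.87 to 10.5 against 11.2 to 22.8). In muscle the genotypes overlapped at both ages (5-month means of 10.2 and 29.1 CPM, 20-month means of 5.98 and 7.91), as they did in adipose tissue at 20 months (7.36 and 11.97 CPM). In each young group 2 libraries, 12 in all, had Xist far above the sum of the Y-chromosome genes Ddx3y, Uty and Eif2s3y, and no old library did. These are called libraries with Xist and no Y transcripts below, although full absence of Y transcripts was not required. In 4 young adipose libraries, 3 KO and 1 WT, markers of gonad and epididymis, called epididymis transcripts here, reached up to 6982 CPM in sum. Old adipose libraries held at most 0.514 CPM. Of the 10 listed markers, 4 had a group mean over 1 CPM in young KO adipose tissue and 2 in young WT adipose tissue. In the latter, 5 were at 0 in every library, so the name rests on few genes. The young WT muscle library W5S5299 held 127 CPM and was not among those left out for these transcripts. Of the old WT muscle libraries, 1 held hepatocyte markers at a summed 3017 CPM. In bulk tissue, fewer cells of a type and less RNA per cell cannot be told apart.

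The promoters of several synthetase genes hold the letters to which MYC and ATF4 are known to bind, and these sites are shown because Myc is the gene the study inactivated and ATF4 the best known activator of synthetase genes. RefSeq promoter windows (GRCm38.p6, 250 bases before to 50 after the start) existed for 27 of the 37 genes. The E-box CACGTG, which reads the same on both strands, stood in 4 of 13 cytosolic windows (30.8%), in 1 of 14 mitochondrial windows (7.14%) and in 8.09% of the 27025 windows of all genes. The sites are given with 10 bases on each side, 5′ to 3′ on the gene's strand, with the motif in capitals.

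Aars (chr8:111033686-111033711, plus strand): tcaaccctgtCACGTGacactccatg
Farsb (chr1:78488921-78488946, minus strand): agacaggcatCACGTGagacagccca
Iars (chr13:49682051-49682076, plus strand): ccaatcgccaCACGTGttgtttgtag
Tars (chr15:11399624-11399649, minus strand): cgcctgtggcCACGTGgcgcacgcgc
Ears2 (chr7:122067050-122067075, minus strand): cgaaggagccCACGTGtgtgtttcta

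The core of the amino acid response element, TGATGNAA, was searched on both strands. It stood in 5 of 13 cytosolic windows (38.5%), in 0 of 14 mitochondrial windows and in 4.51% of all windows. The capitals below mark it, as written in Yars and as its reverse complement in the others.

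Aars, after the start (chr8:111033841-111033868, plus strand): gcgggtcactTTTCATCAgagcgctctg
Gars (chr6:55037961-55037988, plus strand): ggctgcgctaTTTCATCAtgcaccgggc
Iars (chr13:49682127-49682154, plus strand): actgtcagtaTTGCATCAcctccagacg
Tars (chr15:11399656-11399683, minus strand): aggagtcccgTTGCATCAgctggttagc
Yars (chr4:129189896-129189923, plus strand): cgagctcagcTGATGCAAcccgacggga

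Aars, Iars and Tars held both motifs, which did not overlap each other. A match describes the letters in a window and says nothing of binding in these tissues. No window was shown from chromosome 18, where Hars, Hars2, Lars and Nars lie.

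All 37 genes passed the filter on low values in each tissue. Levels are compared between genes as CPM per kb of exon. Among the cytosolic genes of young WT mice, the highest in liver was Aars, the alanyl enzyme (93.6 ± 16.6 CPM per kb, SD, n = 6), followed by Tars, the threonyl enzyme (85.2 ± 19.1). In muscle it was Eprs, the joint glutamyl and prolyl enzyme (97.3 ± 14.3), followed by the asparaginyl enzyme Nars (62.8 ± 4.36). In adipose tissue it was the glycyl enzyme Gars (32.1 ± 5.70), followed by Nars (26.9 ± 1.89). The lowest cytosolic genes were the tryptophanyl Wars in liver (7.96 ± 1.48), Farsa, a subunit of the phenylalanyl enzyme, in muscle (15.3 ± 1.67) and the cysteinyl Cars in adipose tissue (6.06 ± 0.686). Aars stayed highest in all 4 liver groups and Eprs in all 4 muscle groups. In adipose tissue the highest mean was that of Gars in both young groups and of Nars in both old ones.

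Mitochondrial synthetase genes lay lower. Their median level in young WT mice was 3.33 (adipose tissue), 7.05 (liver) and 6.32 CPM per kb (muscle), against 15.9, 23.8 and 29 for the cytosolic genes. Lars2, the mitochondrial leucyl enzyme, was highest of its class in 11 of 12 groups, with 46.6 ± 27 CPM per kb in young WT adipose tissue, 149.7 ± 173 in liver and 41.5 ± 9.57 in muscle (SD, n = 6 each). Its SD in liver exceeded its mean. Iars2, the isoleucyl enzyme, came next (14, 18.7 and 20.1 CPM per kb). In old WT adipose tissue Iars2 (14.3 ± 1.51) stood above Lars2 (11.3 ± 2.11, SD, n = 5). Pars2 was the lowest in adipose tissue and muscle (1.17 and 1.09 CPM per kb) and Wars2 in liver (1.29).

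**Figure D1:**
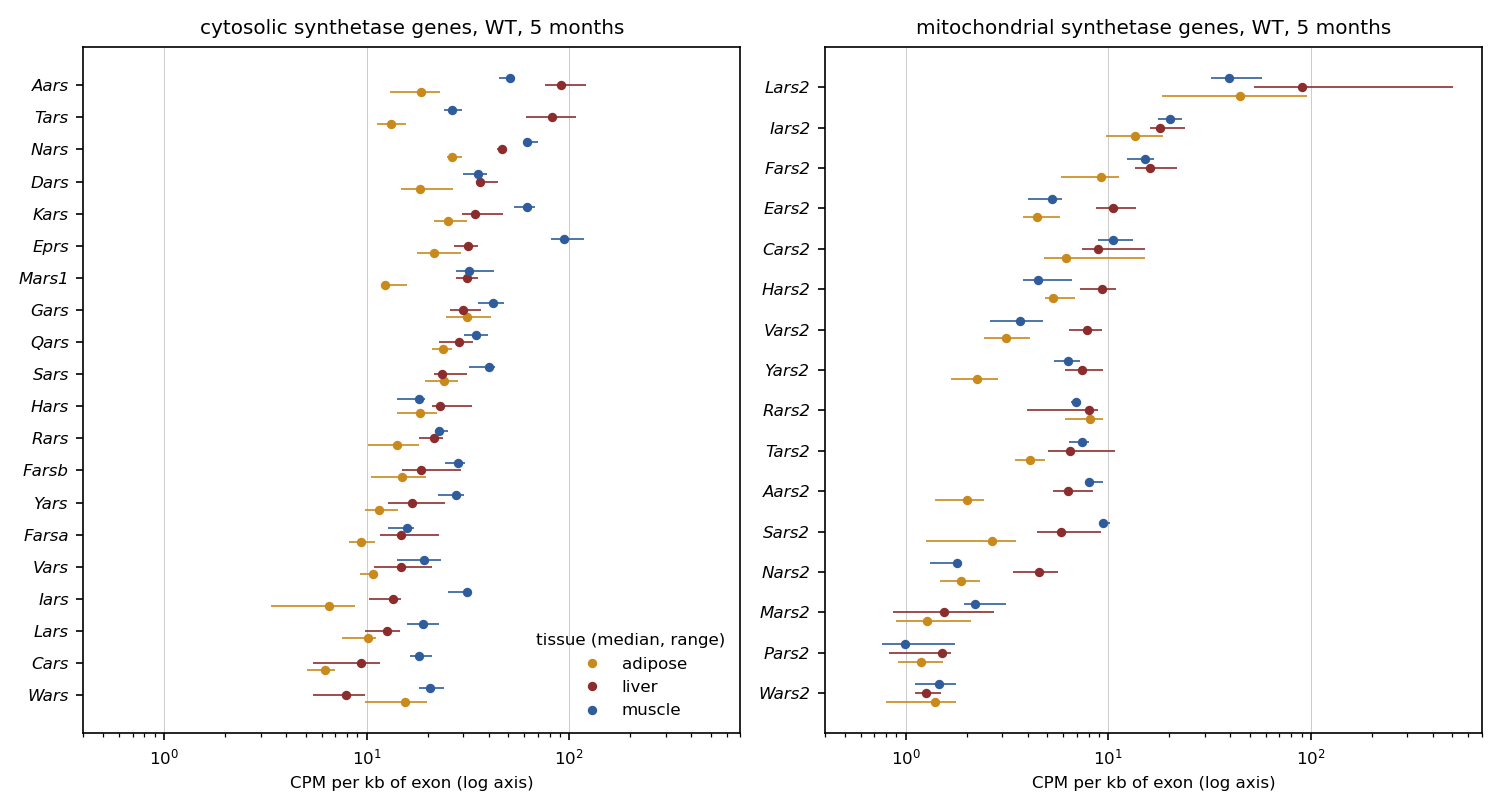
CPM per kb of exon on a log axis for cytosolic (left) and mitochondrial (right) synthetase genes in young WT mice, as the median (point) and the lowest to highest of 6 libraries (line) in adipose tissue, liver and muscle. Aars and Tars lead the cytosolic genes in liver, Eprs leads them in muscle, and the Lars2 range in liver is the widest of the mitochondrial genes.

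For 14 amino acids a cytosolic gene and a mitochondrial gene with the matching symbol could be compared per length within each library. In 11 of these 14 pairs the cytosolic gene was the higher in every library of all 12 groups. The group medians of the ratio ran from 9.01 to 37.1 for Nars over Nars2, from 7.10 to 27.3 for Mars1 over Mars2 (the methionyl pair), from 5.08 to 14.9 for Aars over Aars2 and from 1.77 to 3.68 for Hars over Hars2 (the histidyl pair). Cars exceeded Cars2 in every library of 6 groups and Iars exceeded Iars2 in every library of 3. Lars did so in no group, with group medians of 0.142 to 1.01 for Lars over Lars2.

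The spread between libraries of a group, as the coefficient of variation, had a median of 13.8% (adipose tissue), 12.1% (liver) and 9.63% (muscle) for cytosolic genes. For mitochondrial genes it was 17.5%, 16.6% and 12.5%. Over the 12 groups, the median was lowest for Qars, the glutaminyl enzyme (5.95%), and highest for Lars2 (39.1%, with 15.8% to 116% in single groups). Mars2 had a median of 24%.

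On the deposited scale, most synthetase genes were lower in adipose tissue than in liver or muscle of young WT mice. Against muscle, 19 of 20 cytosolic and 7 of 17 mitochondrial genes were lower in adipose tissue and none was higher, by limma at an adjusted p under 0.05, where 69.2% of all 11330 genes tested in the 3 tissues differed. Against liver, 17 cytosolic and 12 mitochondrial genes were lower in adipose tissue and only Wars was higher (66.7% of all genes). Muscle exceeded liver for 12 cytosolic genes and fell below it for 3, while 1 mitochondrial gene was higher and 5 were lower (70.2% of all genes). The scaling sets the zero of these differences. On the deposited scale the median difference of all genes was -0.05 (adipose minus liver), -0.03 (muscle minus liver) and 0.10 (adipose minus muscle). With each library's reads scaled to the same total it moved to 0.996, 0.20 and 0.90, and the adipose calls changed direction for many genes. Then 15 cytosolic genes were higher and 2 lower than in liver (82.5% of all genes called), and 3 were higher and 8 lower than in muscle (79.6%). Among mitochondrial genes they became 9 higher and 2 lower than in liver, and 8 higher and 3 lower than in muscle. A factor per library shifts nearly all genes alike and largely cancels when the median of all genes is subtracted. Class medians relative to that median were therefore bound to be close on both scales and are no check of the scaling. For cytosolic genes they were -0.46 and -0.39 (log2, deposited scale and equal totals) for adipose minus liver, 0.47 and 0.51 for muscle minus liver and -1.02 and -0.96 for adipose minus muscle. For mitochondrial genes they were -0.64 and -0.59, -0.15 and -0.12, and -0.30 on both scales.

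On the deposited scale, the order muscle, liver, adipose tissue held for 13 of 20 cytosolic genes. In 9 of these both neighbours in the order differed by the test. The place of adipose tissue in these orders depends on the scale, since many adipose calls changed direction with equal totals. Aars, Dars, Farsa and Tars ran liver, muscle, adipose tissue, and both steps passed in 2 of them. Gars and Wars ran muscle, adipose tissue, liver, and Hars was highest in liver, with adipose tissue next (limma adjusted p = 0.0088 for this step) and muscle last (0.788). The mitochondrial genes had no common order: 6 ran muscle, liver, adipose tissue (both steps passed in 1), 5 ran liver, muscle, adipose tissue, 4 ran liver, adipose tissue, muscle, and Rars2 was highest in adipose tissue and Wars2 in muscle.

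Tars showed the most distinct liver level. Its lowest, median and highest library of young WT mice lay at 29.5, 34.9 and 41.3 CPM in adipose tissue, at 63.5, 69.3 and 78.0 in muscle and at 161, 217 and 284 in liver, so the 3 tissues did not overlap. The difference was -2.62 (log2, SE 0.14, limma adjusted p = 3.6e-12) for adipose minus liver and -1.65 for muscle minus liver. Aars lay at 47.8, 68.1 and 84.0 CPM in adipose tissue and at 277, 332 and 440.4 in liver, a difference of -2.31 (SE 0.14, adjusted p = 2.46e-11). No adipose library reached the lowest liver library for either gene on the deposited scale. Over the alternatives the difference from liver ran from -2.72 to -1.50 for Tars and from -2.41 to -1.17 for Aars. Mars1 was also lower in adipose tissue than in liver (-1.27), but this call was lost with equal totals (adjusted p = 0.229).

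Eprs was the gene that set muscle apart. Its young WT libraries lay at 86.8, 105 and 144 CPM in adipose tissue, at 133, 156 and 173 in liver and at 399, 465 and 578 in muscle (lowest, median, highest). The muscle libraries stood clear of both other tissues, with differences of 1.61 from liver and -2.12 for adipose minus muscle. Iars, the cytosolic isoleucyl enzyme, lay at 14.9, 28.7 and 38.5 CPM in adipose tissue and at 111, 138 and 140.4 in muscle (-2.28), and Nars at 69.2, 73.4 and 82.5 against 164, 172 and 194 (-1.22). Over the alternatives the Nars difference ran from -1.33 to -0.35 and stayed called. Wars was the exception in liver: its libraries lay at 15.6, 22.7 and 28.2 CPM there, at 28.3, 44.5 and 57.2 in adipose tissue and at 52.1, 58.9 and 69.2 in muscle (1.37 for muscle minus liver).

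Among the mitochondrial genes, Yars2, the tyrosyl enzyme, lay at 5.27, 7.08 and 9.02 CPM in adipose tissue, 19.3, 23.4 and 29.6 in liver and 17.1, 19.9 and 22.9 in muscle. It differed by -1.63 between adipose tissue and liver and by -1.37 between adipose tissue and muscle. Aars2 lay at 4.70, 6.74 and 8.20 CPM in adipose tissue, 17.9, 21.3 and 28.1 in liver and 25.7, 26.8 and 31.5 in muscle, with differences of -1.63 and -1.95. For both genes every adipose library was below every library of the other tissues on the deposited scale. Over the alternatives both genes stayed called. Yars2 ran from -1.77 to -0.57 against liver and from -1.525 to -0.58 against muscle. Aars2 ran from -1.77 to -0.58 and from -2.11 to -1.15. Sars2, the seryl enzyme, differed by -1.80 between adipose tissue and muscle. Nars2 was the clearest gene with less in muscle than in liver, at 5.46, 7.47 and 7.80 CPM against 14.1, 18.9 and 23.4 (-1.32). Vars2 (-1.07) and Ears2 (-0.96), the valyl and glutamyl enzymes, were likewise lower in muscle than in liver. Ears2 was also lower in adipose tissue than in liver (-1.14), a call lost with equal totals (adjusted p = 0.585).

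Inactivation of Myc was followed by no synthetase gene past the threshold. In limma, 0 of 37 genes were called between KO and WT at either age in any tissue, and 0 in the test of whether the genotype difference changed with age. Few genes of any kind were called: 0.105% of all genes in adipose tissue at 5 months and 0 at 20 months, 0.0696% and 0.0232% in liver, and 0 and 0.0302% in muscle. At an unadjusted p under 0.05, 12 synthetase genes differed in adipose tissue at 5 months (2 higher and 10 lower in KO, 11.8% of all genes) and 0 at 20 months (2.25%). In liver there were 3 at 5 months (6.94%) and 2 at 20 months (5.8%), and in muscle 5 at 5 months (4.1%) and 7 at 20 months (13.8%), all lower in KO. DESeq2 called 1 gene in these comparisons, Ears2 in liver at 5 months (adjusted p = 0.0394, 0.364% of all genes), and edgeR called 0. In the interaction 3 adipose, 1 liver and 3 muscle tests of the 37 genes had an unadjusted p under 0.05 (2.85%, 3.92% and 3.31% of all genes), and edgeR and DESeq2 called 0.

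The largest shift of a class stood in young adipose tissue, where all 17 mitochondrial genes had a KO mean below that of WT, while 43.6% of all genes lay above 0. The median difference of the class was -0.28 (log2) against -0.04 over all genes and -0.06 for the cytosolic genes. At 20 months it was -0.03 for mitochondrial and 0.05 for cytosolic genes. Lars2 differed by -1.21 (SE 0.40, limma adjusted p = 0.279). Of the cytosolic genes Lars had the smallest p, at 26.9, 29.4 and 35.7 CPM in KO and 29.99, 40.5 and 44.0 in WT (lowest, median, highest), which overlap (-0.31, SE 0.11, adjusted p = 0.323). Wars had the largest difference, 0.65 (adjusted p = 0.383). Its 2 highest KO libraries, at 142 and 159 CPM, were the 2 with the most epididymis transcripts (6982 and 4244 CPM in sum). The other 4 lay between 40.5 and 46.5 CPM. Adipocyte markers summed to 13811 to 43156 CPM in young KO adipose libraries and to 25190 to 47177 in young WT ones. The KO libraries with epididymis transcripts held the least (K5F4284 13811, K5F5218 14423 and K5F5248 14945 CPM), as did the WT library with them (W5F5299, 25190 CPM). The part of this make-up in the class shift and in Wars was not tested beyond the fit without those libraries.

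The young adipose comparison depended on which libraries entered. Without the 2 libraries per group that had Xist and no Y transcripts, 5 mitochondrial genes were lower in KO at an adjusted p under 0.05, among them Sars2 (-0.68, adjusted p = 0.0278), Tars2 (-0.50, 0.0365), Aars2 (-0.57, 0.0428) and Lars2 (-1.52, 0.0449). In that fit 3.68% of all genes were called, and 0 cytosolic synthetase genes. The libraries it kept included K5F4284, K5F5218 and K5F5248 of KO and W5F5299 of WT, which held epididymis transcripts. Their part in these calls was not tested apart from the Xist libraries. With those libraries kept and marked by a covariate, and without the libraries that held epididymis transcripts, 0 were called.

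In the young liver, Ears2 had the smallest p of the class. Its KO libraries lay at 13.5, 14.7 and 16.5 CPM and the WT libraries at 16.3, 19.9 and 25.7, so that the groups overlapped by their outermost libraries, and the difference was -0.38 (SE 0.10, limma adjusted p = 0.251). Eprs differed by -0.25 (adjusted p = 0.674), and by -0.15 without K5L5218. In the old liver Dars, the cytosolic aspartyl enzyme, had the smallest p of its class (-0.27, adjusted p = 0.804). The class medians were -0.09 and -0.06 at 5 months and 0.00 and -0.14 at 20 months, cytosolic first, with 0.01 over all genes.

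In young muscle the 4 KO libraries held Tars at 45.2, 52.7, 58.4 and 60.6 CPM and the WT libraries at 63.5, 69.3 and 78.0 (lowest, median, highest). The groups did not overlap, which was so for 0.212% of all genes with the KO lower, and the difference was -0.35 (SE 0.10, limma adjusted p = 0.652). Ears2 lay at 5.85, 6.21, 6.96 and 8.24 CPM against 7.59, 9.95 and 11.1 (-0.45, SE 0.12, adjusted p = 0.652). In old muscle Rars2, the arginyl enzyme, lay at 11.9, 12.5, 12.8, 13.5 and 13.97 CPM in KO and at 14.2, 14.4, 15.6, 16.3 and 20.8 in WT (-0.30, SE 0.10, adjusted p = 0.295). Ears2 lay at 6.15, 7.41, 8.06, 8.21 and 8.67 CPM against 9.29, 9.40, 10.01, 10.4 and 11.2 (-0.35, SE 0.12, adjusted p = 0.295). Dars lay at 73.4, 75.3, 76.9, 82.7 and 83.5 CPM against 83.6, 84.0, 88.7, 88.9 and 116 (-0.22, adjusted p = 0.324). Without W18S42, the library with hepatocyte transcripts, the Dars difference was -0.14. In each of these 3 genes every KO library was below every WT library, which 1.71% of all genes did. The class medians in muscle were -0.11 and 0.00 at 5 months (0.01 over all genes) and -0.06 and -0.13 at 20 months (-0.03 over all genes), cytosolic first.

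Dars and Ears2 were among the genes with a mean below WT in all 6 comparisons of genotype, on the deposited scale. The differences ran from -0.31 to -0.01 for Dars and from -0.45 to -0.08 for Ears2. These 6 comparisons use separate libraries, but young library numbers recur across tissues and may mark the same mice. All 6 also share the difference in strain background. Both genes were picked after their values were seen and neither passed the threshold in limma.

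**Figure D2:**
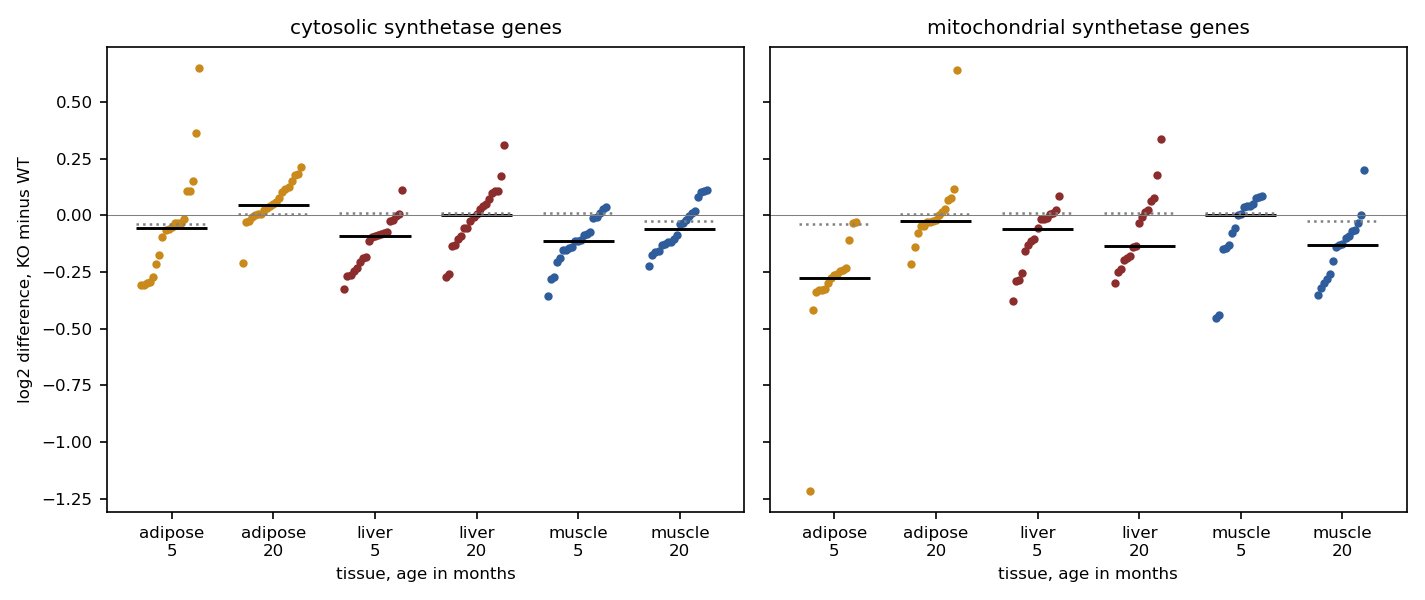
Log2 difference of KO minus WT for cytosolic (left) and mitochondrial (right) synthetase genes, by tissue and age, with the class median (black line) and the median over all genes (dotted line). The mitochondrial genes of young adipose tissue lie below 0 throughout, with a median of -0.28, and no point passed the test.

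On the deposited scale the cytosolic synthetase genes lay lower, as a class, in the old than in the young liver of WT mice. All 20 differences were below 0, where 48.6% of all genes lay above it, with a median of -0.26 (log2) against -0.01 over all genes. Of the 20, 4 fell past the threshold (Hars, Eprs, Sars and Kars) and 0 rose, where 7.19% of all genes changed with age, and 11 were lower at an unadjusted p under 0.05 (25.5% of all genes in either direction). The 17 mitochondrial genes had a median of 0.01, and 1 of them rose.

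Hars lay at 41.8, 45.6 and 66 CPM in young WT livers (lowest, median, highest) and at 35.4, 36.1, 36.5, 36.7 and 38.4 in old ones. The ages did not overlap, as in 3 cytosolic genes and in 2.79% of all genes with the old group lower, and the fall was -0.39 (SE 0.10, limma adjusted p = 0.0262). Eprs went from 133, 156 and 173 CPM to 103, 112, 114, 118 and 133, with the highest old library next to the lowest young one (-0.41, SE 0.12, adjusted p = 0.0340). Sars, the cytosolic seryl enzyme, went from 77.9, 85.3 and 114 CPM to 65.1, 68.3, 68.6, 71.7 and 72.3 without overlap (-0.37, SE 0.11, adjusted p = 0.0483). Kars, the lysyl enzyme, went from 66.2, 77.4 and 105 CPM to 55.9, 57.1, 62.6, 64.4 and 69.1, with some overlap (-0.36, SE 0.11, adjusted p = 0.0496). Of the 8 genes of the multisynthetase complex 2 were called (Eprs and Kars), and of the other 12 cytosolic genes 2 (Hars and Sars). Tars had the largest difference, -0.54, and did not pass (adjusted p = 0.0626). The mitochondrial gene that rose was Iars2, from 76.1, 85.6 and 114 CPM to 105, 109.8, 111, 113 and 117 (0.33, SE 0.10, adjusted p = 0.0449). Its young and old libraries overlapped only through the highest young one.

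These liver calls were close to the threshold. With equal totals (10.2% of all genes called), with a covariate for the Xist libraries, or without those libraries (3.2%), 0 cytosolic genes were called. Leaving out 1 library at a time gave 0 calls (without W18L03, W18L04, W18L05 or W5L5042) to 8 (without W5L5277), with 1 without W18L02 and 2 without W5L5004, W5L5005 or W5L5041. The share of all genes called in these fits is not given. Equal totals moved the median of all genes to 0.17. Relative to it the class median was -0.22, with 19 of 20 genes below. A factor per library largely cancels in this comparison, so it is no independent check of the direction of the class. Iars2 was called in 2 of 11 fits that left out 1 library. The young libraries with Xist and no Y transcripts included the highest Hars value (66 CPM) and the 2 highest Eprs values, and their part in the result was not tested beyond these fits.

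In old WT adipose tissue 3 mitochondrial genes fell (Lars2, Ears2 and Rars2) and 0 of 20 cytosolic genes changed, where 10.8% of all genes changed. Of the cytosolic genes 5 were lower at an unadjusted p under 0.05 (30.4% of all genes), and edgeR called 1 (11.9%) and DESeq2 4 (18.9%). Ears2 lay at 7.14, 8.39 and 10.9 CPM in young libraries and at 4.60, 4.88, 4.94, 5.26 and 7.08 in old ones, without overlap, as in 5 synthetase genes and 4.65% of all genes with the old group lower (-0.58, SE 0.16, limma adjusted p = 0.0262). Rars2 went from 11.4, 15.2 and 17.6 CPM to 9.10, 10.3, 10.4, 11.0 and 11.9 (-0.47, SE 0.13, adjusted p = 0.0273), and its ages overlapped in 1 old library. Lars2 is described below with the other tissues. Qars had the smallest p of the cytosolic genes, with 52.4, 59.7 and 65.9 CPM in young and 44.2, 46.0, 47.6, 48.5 and 49.2 in old libraries (-0.32, SE 0.11, adjusted p = 0.0597). Its ages did not overlap. The medians of the classes were -0.18 (cytosolic) and -0.21 (mitochondrial), with 0.01 over all genes. Ears2 and Rars2 were lost with a covariate for the Xist libraries and without those libraries (highest adjusted p of 0.0982 and 0.108). Each was kept in 5 of 11 fits that left out 1 library. Without the libraries that held epididymis transcripts, 5 cytosolic and 6 mitochondrial genes were called, all lower (24.3% of all genes). Adipocyte markers (10 of 10 over 1 CPM) summed to 25190 to 47177 CPM in young WT adipose libraries and to 16864 to 24447 in old ones, and T cell markers to 5.68 to 16.0 and 17.4 to 74.5. Their part in the result was not tested.

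In old WT muscle the mitochondrial genes moved in both directions: 5 rose and 2 fell, with 18.6% of all genes changed, and 0 of 20 cytosolic genes changed. At an unadjusted p under 0.05, 2 cytosolic genes were lower (35.2% of all genes), and edgeR and DESeq2 called 1 each (18.6% and 23.3%). Nars2 went from 5.46, 7.47 and 7.80 CPM in young libraries to 8.32, 10.2, 11.4, 11.9 and 12.7 in old ones, without overlap, as in 3.32% of all genes with the old group higher (0.56, SE 0.12, limma adjusted p = 0.0066). Hars2 went from 11.9, 14.1 and 20.8 CPM to 20.7, 22.2, 23.3, 23.5 and 25.4, where the highest young library just exceeded the lowest old one (0.57, SE 0.13, adjusted p = 0.0084). Among the others that rose were Mars2 (0.44, adjusted p = 0.0298) and Rars2 (0.30, 0.0325). Tars2, the threonyl enzyme, fell from 27.9, 32.3 and 34.8 CPM to 24.7, 24.95, 25.6, 25.9 and 27.1 without overlap, as in 1.95% of all genes with the old group lower (-0.29, SE 0.09, adjusted p = 0.0319), and Lars2 fell too. Of the cytosolic genes the valyl Vars had the smallest p (-0.35, SE 0.13, adjusted p = 0.0627), at 58.6, 79.8 and 95.9 CPM in young and 51.8, 54.8, 60.1, 68.0 and 70.0 in old libraries. The class medians were 0.14 (mitochondrial) and -0.08 (cytosolic), with 0.03 over all genes. Without the Xist libraries the calls dropped to Lars2 and Nars2 (Hars2 had an adjusted p of 0.0661, and 6.27% of all genes were called). Without W18S42, the old library with hepatocyte transcripts, 3 mitochondrial genes were called, and without W18S66 there were 4.

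With age in KO mice 1 synthetase gene was called over the 3 tissues, and the interaction test called 0 of 37 in each tissue. In adipose tissue 14.2% of all genes changed, and Lars, the cytosolic leucyl enzyme, rose from 26.9, 29.4 and 35.7 CPM to 37.1, 39.8, 41.2, 43.1 and 46.9 without overlap, as in 3.79% of all genes with the old group higher (0.43, SE 0.12, limma adjusted p = 0.0200). The call was lost without the libraries that held epididymis transcripts (adjusted p = 0.0934), where 3 cytosolic genes were lower instead (17.9% of all genes called). Aars2 had the smallest p of the mitochondrial genes (0.42, adjusted p = 0.0659). In liver 2.99% of all genes changed and 0 synthetase genes, with 6 at an unadjusted p under 0.05 (5 lower, 19.2% of all genes) and 0 by edgeR and DESeq2. Of the cytosolic genes 18 of 20 lay below 0 in KO liver, with a class median of -0.19 against -0.02 over all genes. Qars came closest there, with 62.6, 67.9 and 70.8 CPM in young and 53.3, 53.4, 56.6, 56.9 and 57.8 in old KO libraries, which did not overlap, as in 2.17% of all genes with the old group lower (-0.27, adjusted p = 0.0925). Aars2 differed by 0.36 (adjusted p = 0.166). In muscle 5.57% of all genes changed and 0 synthetase genes, with 9 at an unadjusted p under 0.05 (5 higher, 25.6% of all genes), 0 by edgeR and 3 by DESeq2 (10.8%). Sars2 was closest, at 16.1, 18.9, 19.0 and 19.0 CPM in young and 11.6, 12.3, 13.4, 14.02 and 17.3 in old libraries (-0.39, adjusted p = 0.0580). Vars differed by -0.35 (adjusted p = 0.140), the same size as in WT muscle. The smallest interaction p values belonged to Hars (0.45) and Lars2 (1.85, SE 0.59, adjusted p = 0.998) in adipose tissue, to Tars (0.52) and Rars2 (-0.31, or -0.15 without W5L5277) in liver, and to Tars (0.33) and Yars2 (-0.31) in muscle.

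**Figure D3:**
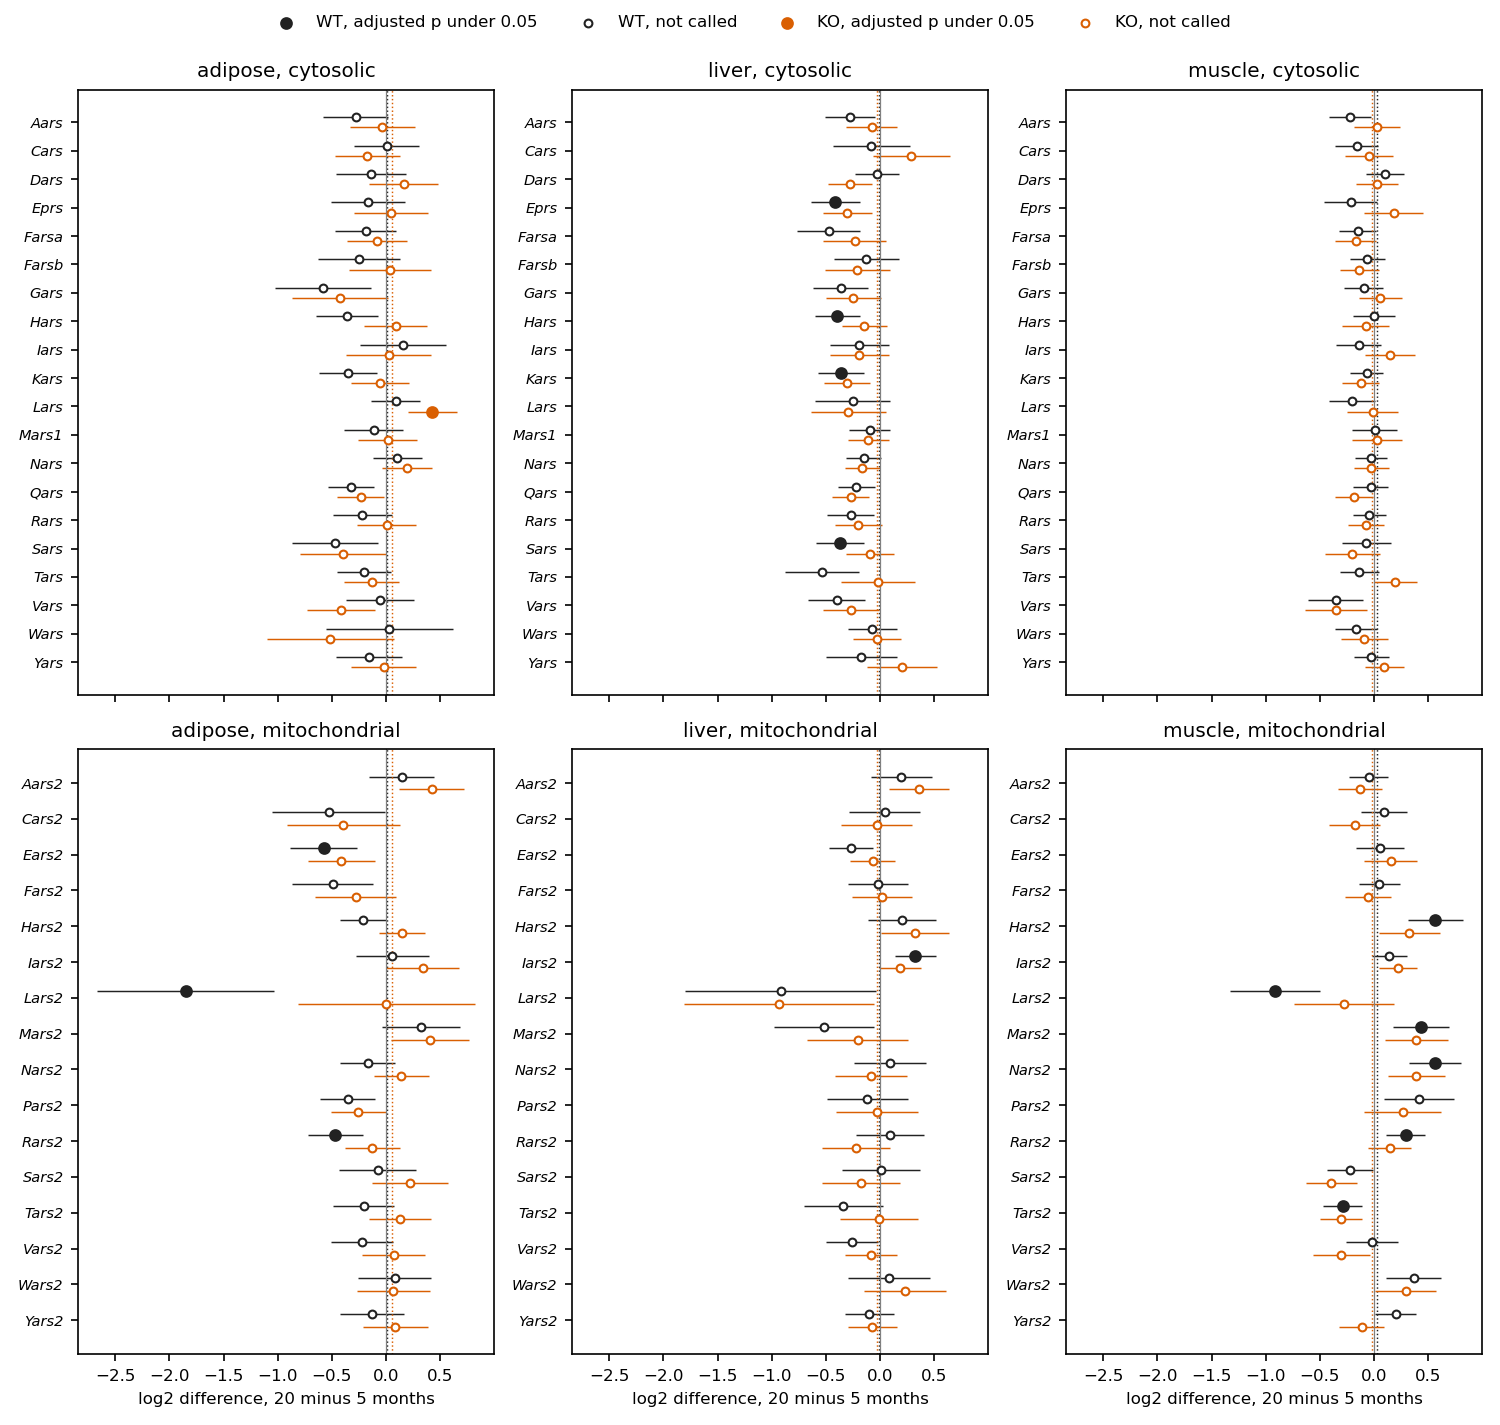
Log2 difference of 20 minus 5 months in WT (black) and KO (orange) for cytosolic (top) and mitochondrial (bottom) synthetase genes in each tissue, with 95% intervals, filled points for an adjusted p under 0.05 and dotted lines at the median of all genes. All 20 cytosolic genes lie below 0 in WT liver, and the filled points in WT muscle are all mitochondrial.

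**Figure D4:**
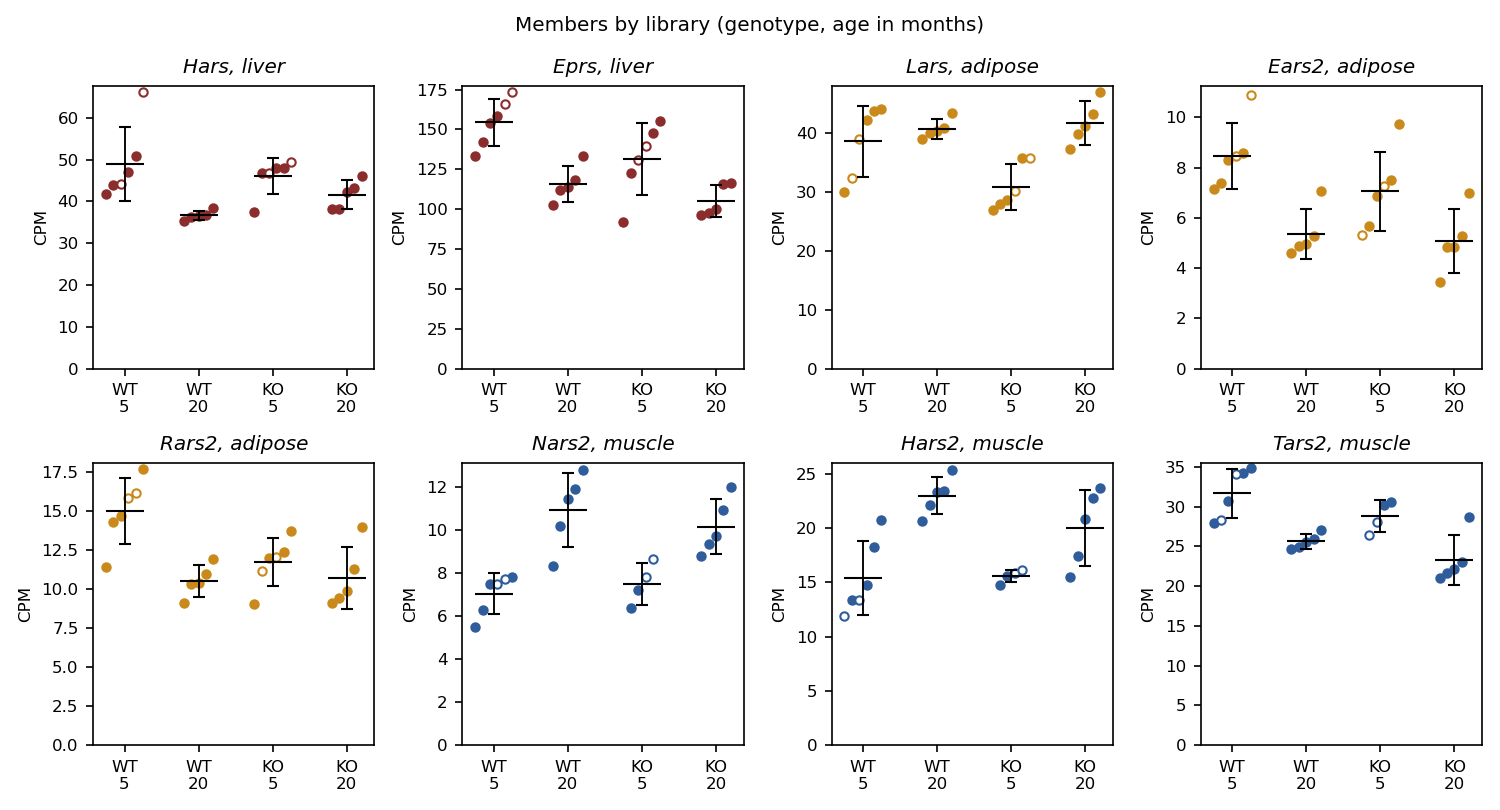
CPM in every library for 8 synthetase genes by genotype and age, with mean and SD (bars) and open circles for libraries with Xist and no Y transcripts. Hars in liver and Tars2 in muscle lie lower in all old WT libraries than in any young one, Nars2 in muscle lies higher, and Lars in adipose tissue lies higher in all old KO libraries than in any young KO one.

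With all WT libraries in the fit, ageing differed between tissues for several mitochondrial genes. The Xist covariate and the fits without Xist or epididymis libraries were not run for this comparison. The adipose calls of Ears2 and Rars2 and the muscle call of Hars2 were lost without the Xist libraries. The difference of WT ageing in muscle minus that in adipose tissue was called for 6 mitochondrial genes and 1 cytosolic gene, all toward muscle, where 16.9% of all genes were called. It was 0.78 for Hars2 (SE 0.18, limma adjusted p = 0.0051), 0.73 for Nars2 (SE 0.19, 0.0098) and 0.63 for Ears2 (SE 0.17, 0.0118), and the others were Rars2 (0.76), Pars2 (0.77) and Fars2 (0.54). For Hars2 and Nars2 the muscle values rose while the adipose differences were -0.21 and -0.17 and did not pass. For Ears2 the adipose values fell while the muscle difference was 0.06. Rars2 fell in adipose tissue and rose in muscle. The cytosolic gene was Gars (0.49, SE 0.15, adjusted p = 0.0267), at 58.5, 74.8 and 98.1 CPM in young and 47.6, 47.6, 48.9, 50.8 and 55.4 in old WT adipose libraries, and with a muscle difference of -0.10. The Gars call was lost without W18S66 (adjusted p = 0.0539). Liver against adipose tissue gave 0 calls among 37 (3.89% of all genes), with the smallest p for Mars2 (-0.84, adjusted p = 0.0710) and Nars (-0.25, 0.157). Liver against muscle gave 0 (2.65% of all genes), with Mars2 (-0.96, adjusted p = 0.0514) and Hars (-0.39, 0.163). At an unadjusted p under 0.05 there were 5 in each of these comparisons (20.4% and 18.7% of all genes), and edgeR called 0. The lower cytosolic levels of the old WT liver were not shown to differ from the course of the other tissues.

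Lars2 had the largest ageing difference of the synthetase genes in each WT tissue and in KO liver, and the widest spread. In KO adipose tissue and KO muscle other genes differed more. In WT adipose tissue it went from 71.8, 174 and 375 CPM (lowest, median, highest) to 36.4, 39.1, 39.7, 49.3 and 55.9, so every old library was below every young one (-1.85, SE 0.42, limma adjusted p = 0.0090). In WT muscle it went from 126, 154 and 223 CPM to 59.4, 65.0, 79.9, 98.6 and 135 (-0.91, SE 0.21, adjusted p = 0.0091), with the ages overlapping in 1 old library. In WT liver it went from 205, 352 and 1950.2 CPM to 168, 182, 207, 239.9 and 306 (-0.92, SE 0.45, adjusted p = 0.204). In KO liver it went from 272, 349 and 1162 CPM to 129, 149, 222, 256 and 374 (-0.93, adjusted p = 0.26). In KO adipose tissue it lay at 32.6, 62.6 and 141 CPM in young and 34.2, 51.8, 52.5, 92.0 and 172 in old libraries (0.01), and in KO muscle the difference was -0.27. Both WT falls were called under each scaling, test and subset of libraries tried, with adjusted p of at most 0.0245 (adipose) and 0.0498 (muscle), and without each library in turn, with at most 0.0286 and 0.0334.

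Other transcripts were high in some of the extreme Lars2 libraries and not in others, and these were looked at after the values were seen. The young WT liver library with 1950.2 CPM of Lars2 also had the highest Gm15564, a long noncoding RNA gene, at 8.49 CPM (group range 0.584 to 8.49, median 1.31), and the highest mt-Rnr2, the large mitochondrial ribosomal RNA, at 876 CPM (260 to 876). The young WT adipose library with 375 CPM of Lars2 had the highest Gm15564 of its group, at 2.27 CPM (0.113 to 2.27, median 0.575), but its mt-Rnr2 of 504 CPM was below the 605 of another library. The young KO liver library with 1162 CPM of Lars2 had Gm15564 at 1.09 CPM, inside its group's range of 0.595 to 1.58, and the highest mt-Rnr2 of the group (499.8 CPM). The old KO adipose library with 172 CPM had Gm15564 at the group median (0.216 CPM) and the highest mt-Rnr2 (431 CPM). In GENCODE M21 transcripts, 2 of 9 Lars2 transcripts shared a stretch of 25 or more bases with Gm15564 (longest run 52 bases, same strand), and 0 of 9 did with mt-Rnr2. How reads from such stretches were assigned is not given in the sources used here, and their part in the Lars2 values was not tested.

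**Figure D5:**
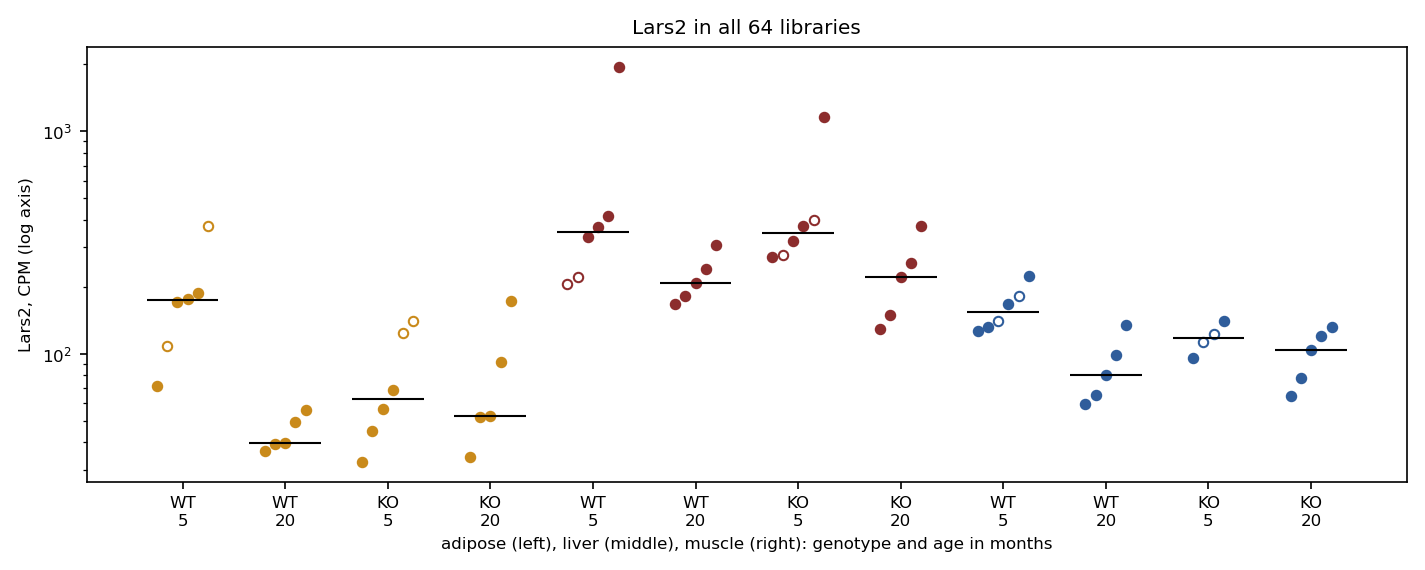
Lars2 CPM on a log axis in each of the 64 libraries by tissue, genotype and age, with the group median (line) and open circles for libraries with Xist and no Y transcripts. In WT adipose tissue the old libraries, at 36.4 to 55.9 CPM, all lie below the young ones, and single young liver libraries reach 1162 and 1950.2 CPM.

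Genes that work with the synthetases were followed in 5 lists. These were the targets of the ATF4 amino acid response, the scaffold of the multisynthetase complex with the cytosolic elongation factors, the mitochondrial tRNA modification and elongation factors, synthetase-like and editing proteins, and the kinases and phosphatase subunits of the initiation factor eIF2. The lists were tested in the main limma fit only, under none of the alternatives. None of their genes was called between KO and WT at either age, or in the interaction.

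With age in WT muscle, 7 of 32 tested genes of the amino acid response fell and 0 rose. That share is near the 18.6% of all genes that changed in either direction. Without the Xist libraries 6.27% of all genes were called in this contrast, and the list was not tested there. Ddit4, an inhibitor of the growth kinase mTORC1, fell by 3.90 on the log2 scale, Cebpb, a transcription factor, by 1.55, and Slc3a2, a subunit of amino acid transporters, by 0.79. The others were Slc1a4, Slc7a1, Chac1 and Pycr1. Of the eIF2 genes Ppp1r15a (-1.39) and Ppp1r15b (-0.58), which direct the phosphatase to eIF2, fell, and Eif2ak2, the kinase PKR, rose (0.60). Among mitochondrial tRNA genes Qrsl1 (0.53), a subunit of the enzyme that makes mitochondrial glutaminyl-tRNA by amidation, and Trmt5 (0.45), a tRNA methyltransferase, rose and 0 of 20 fell. Tarsl2 (0.32), a threonyl synthetase paralogue, and Dtd2 (0.62), a proofreading enzyme, rose as well.

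In WT adipose tissue 5 of 20 mitochondrial tRNA and elongation genes fell with age and 0 rose, beside 10.8% of all genes changed. Hsd17b10, a subunit of mitochondrial RNase P, fell by 1.72, Trmu, which thiolates mitochondrial tRNAs, by 0.57, and Trit1, a tRNA isopentenyl transferase, by 1.05, beside Pus1 and Trmt61b. Of the 35 amino acid response genes Asns, asparagine synthetase, fell (-1.17) and Vldlr rose (0.96). Ptrh2, a peptidyl-tRNA hydrolase, fell (-0.58). In WT liver the response list had 1 gene up, the stress hormone Gdf15 (1.36), and 2 down, Eif4ebp1 (-1.03) and Ddit4 (-1.79), of 29 tested, beside 7.19% of all genes. Aimp1, a scaffold protein of the multisynthetase complex, fell (-0.45), and so did Pus1 (-0.52), Eif2s1, the alpha subunit of eIF2 (-0.37), and Ppp1r15a (-0.60). Eif2ak2 rose there too (0.66).

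In KO mice the response list had 2 genes up (Atf3, 1.78, and Vldlr, 0.90) and 2 down (Ddit4, -1.78, and Cth, -1.71) of 35 with age in adipose tissue, beside 14.2% of all genes. In KO liver it had none (2.99% of all genes), and in KO muscle 1 up (Vldlr, 0.72) and 2 down (Shmt2, -0.37, and Slc1a4, -0.54) of 32 (5.57% of all genes). Of the mitochondrial tRNA and elongation genes Gfm1 (0.60) and Mto1 (0.37) rose in KO adipose tissue and Trmt5 (0.62) in KO muscle. Eif2ak2 rose in KO adipose tissue (0.53) and Eif2s1 fell in KO liver (-0.40).

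Several synthetase genes share their position with another gene, which bears on their counts. The spans of 17 of the 37 genes overlap another gene, among them Mars1 with Ddit3 (71 bases), Aars with Ddx19b (3974), Farsb with Sgpp2 (2332), Iars2 with Rab3gap2 (115), Lars2 with Gm46137 (8819) and Hars with Hars2 (4). The library kit keeps strand, but whether the counting used it is not given in the sources used here, so the values of these genes are uncertain to that extent.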

How the data were processed

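The deposited table holds 64 library columns that the authors made with the CLC Genomics software and named CPM, per the file headers. Its column sums ran from 0.529 to 1.64 M (M, mega), and the values are therefore treated as a read signal that the authors scaled by a factor per library before they deposited it. The submitters' processing notes name the builds GRCm38.p6 and mm10, and the use of strand in counting is not given in the sources used here. With a tolerance of 0.01, 100% of values came out as whole reads. Symbols were matched by gene ID to RefSeq (GRCm38.p6) for 35336 of 36332 IDs, and the 1 duplicated ID was summed. Libraries of a group differed by a chi-square of 14.5 or more per degree of freedom, so none was a duplicate of another.

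A gene entered the test of a tissue if the number of libraries with over 1 CPM reached the size of the smallest group (14286 adipose genes, 12924 liver genes and 13237 muscle genes). Comparisons between tissues used the 11330 genes that passed in all of them. The test was limma 3.58.1 (R 4.3.3) on log2(CPM + 1), with one mean per group and the Benjamini-Hochberg adjustment over all genes tested. Log2 differences are on that scale, which understates the change of low genes. A gene was called at an adjusted p under 0.05. The alternatives were a pseudocount of 0.1, no filter, libraries scaled to equal read totals, TMM factors, edgeR 4.0.16 and DESeq2 1.42.0 on the recovered reads, a covariate for the libraries with Xist and no Y transcripts, fits without those or without the libraries with epididymis transcripts, the library number as a block, and each library left out. Comparisons between tissues were not run with DESeq2, the Xist covariate or the fits without Xist or epididymis libraries, and only they used the block. In WT muscle, for example, limma called 2463 genes with age, edgeR 2466 and DESeq2 3080. The test was also run on simulated counts scaled to equal totals, with known changes in the old WT libraries. That run does not check the deposited scaling or the make-up of the libraries.

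The synthetase genes and the 5 related lists were chosen with earlier results of these data known. In each comparison the called genes were named, or the 3 with the smallest adjusted p in a class, or the one with the smallest p where none was called. Kars in liver, Mars2, Rars2 and Tars2 in muscle, Wars, Sars2 and Tars2 in adipose tissue, Tars in old liver and the last called genes of the lists fell outside that rule and were named after their values were seen. The values of 1 gene and 1 of the promoter sites are not reported here; the class counts and medians include that gene.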

Additional observations from a re-analysis of the deposited data

Results flagged for a closer look

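A single library stood apart from its group by Dixon's test at the 95% level in 30 of 432 sets of a synthetase gene reported here and a group, and chance flags about 1 in 20. For each, the outlying value in CPM is given. The leading case was Lars2, at 1950 in young WT liver and 1162 in young KO liver. In young KO liver the others were Dars (109), Hars (37.5), Rars2 (18.9) and Yars2 (29.3). In young WT liver they were Hars (66), Iars2 (114) and Rars2 (7.38). The old liver had Dars (78.3) and Aars2 (29.3) in WT and Vars (39.8) and Mars2 (6.34) in KO.

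In adipose tissue the old KO group had Dars (53.9), Sars (90.3), Tars2 (20.9) and Yars2 (7.54), and the old WT group had Ears2 (7.08), Pars2 (2.95) and Sars2 (5.32). The young WT group had Mars1 (47) and Mars2 (6.05), and the young KO group had Tars2 (23.9). In muscle the values were Cars (67.8) and Sars2 (16.1) in young KO, Mars1 (113) and Tars2 (28.7) in old KO, Dars (116) and Eprs (588) in old WT, and Mars2 (9.05) in young WT. The adipose library K18F27 held 4, the most of any library, and the liver library K5L5218 held 3.

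The change with age in WT mice differed between muscle and adipose tissue, by the test of the difference itself (limma), for Gars (0.49), Ears2 (0.63), Fars2 (0.54), Hars2 (0.78), Nars2 (0.73), Pars2 (0.77) and Rars2 (0.76), as the log2 difference in muscle minus that in adipose tissue. This test was not run without the Xist libraries.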

How the results depend on the processing

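Numbers here are counts of called genes, with the cytosolic genes first where both are given. The share of all genes called is given above for only some of these fits. A count that differs between fits may follow that share, so it is no result about the synthetase genes. In adipose WT ageing edgeR called 1 cytosolic gene, DESeq2 called 4 and 5, the Xist covariate and the fit without Xist libraries left 1 mitochondrial gene each, and the fit without epididymis libraries called 5 and 6. In adipose KO ageing the cytosolic calls turned mostly lower in 3 fits: edgeR called 3 (1 higher, 2 lower), DESeq2 6 (1 higher, 5 lower) and the fit without epididymis libraries 3 (0 higher), with 1, 2 and 1 mitochondrial genes. Without Xist libraries this contrast gave 2 and 2, and the genotype contrast of young adipose tissue gave 5 mitochondrial genes. In liver WT ageing the counts were 2 and 0 with no filter, 2 cytosolic with TMM factors, 1 with edgeR, 7 with DESeq2 and 0 with equal read totals, and 0 and 0 with the Xist covariate or without Xist libraries. DESeq2 called 1 mitochondrial gene between genotypes in young liver. In muscle KO ageing equal totals gave 1 and 1 and DESeq2 gave 3 mitochondrial genes. In muscle WT ageing TMM factors, edgeR and DESeq2 each called 1 cytosolic gene, and 2 mitochondrial genes were left without Xist libraries. Equal totals gave 11 and 11 calls between adipose tissue and muscle and 17 and 11 between adipose tissue and liver, with the directions turned except for cytosolic genes against muscle, and 2 mitochondrial genes for the difference of ageing between liver and adipose tissue. The causes of these changes were not tested.

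Leaving out 1 library at a time gave the following ranges, for which the share of all genes called is not given. Adipose KO ageing gave 1 to 5 cytosolic genes (5 without K5F5218, of which 1 was higher and 4 lower) and 0 to 2 mitochondrial genes. Adipose WT ageing gave 0 to 2 cytosolic genes and 1 (without W18F21) to 5 (without W5F5299) mitochondrial genes. Liver WT ageing gave 0 to 8 and 0 to 1, and liver KO ageing 0 to 1 and 0 to 1. Muscle WT ageing gave 0 to 2 (2 without W18S41) and 3 to 9 (9 without W5S5277), and muscle KO ageing 0 to 1 mitochondrial genes. The differences of ageing gave 0 to 1 mitochondrial genes for liver against adipose tissue and against muscle, and 0 to 3 cytosolic genes for muscle against adipose tissue.

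Library numbers recur across tissues in the labels. The deviations of same-numbered young WT libraries correlated at -0.11 to 0.40 (median 0.19, 12 of 14 pairs over 0.1), and those of differently numbered ones at -0.32 to 0.35 (median -0.06, 26 of 94 over 0.1). The young libraries with Xist and no Y transcripts had the same numbers in all 3 tissues. This hints that a number may mark one mouse, but the labels do not say so and not every pair passed 0.1, so the tests between tissues treat the libraries as separate. With the number as a replicate block the difference of ageing between liver and muscle was called for 1 mitochondrial gene, Mars2 (adjusted p = 0.0408), and no other count of a class changed by over 1.5 times.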
